A study of Gallus gallus with 4 samples.

Results

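The comparison set distal granulosa cells of the F1 follicle against distal granulosa cells of the F5 follicle in the ovary of the laying hen. It used 2 of the 4 RNA-seq libraries of the study, the F5 distal and the F1 distal library, joined gene by gene on the authors' identifiers. The other 2 libraries, F5 proximal and F1 proximal, entered only the filter on low values, the scaling and a side-by-side reading of the same genes. Per the labels, all 4 groups are granulosa cells described as natural, from chicken ovaries at an age of 10 to 15 months. Distal cells lie away from the germinal disc of the follicle and proximal cells lie next to it. The labels name no strain, treatment or genetic change, and whether hens or follicles were pooled for a library is not stated in them. With 1 library per group, the differences below were not checked in replicates and carry no p-value.

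Granulosa cells are the somatic layer around the oocyte. In hens the yolky follicles form a hierarchy in which F1 is the next to ovulate and F5 entered yolk-filled growth more recently. In birds, follicle selection is known to go with a shift of granulosa cells from a proliferating state responsive to follicle-stimulating hormone to a state that responds to luteinizing hormone and makes progesterone from cholesterol. Granulosa cells also make proteins of the perivitelline layer, the avian egg coat, and the inhibin and activin subunits of the TGF-beta superfamily.

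Expression was deposited as FPKM, which scales reads by gene length and library depth. The F5 distal library held 17351242 reads and the F1 distal library, the shallowest of the 4, held 13948790. At least 1 read was present for 15277 genes in F5 distal and 14315 genes in F1 distal cells. The F1 library was the more concentrated, with 27.6% of its reads on 10 genes against 14.4% in F5, and 72.3% on 1000 genes against 63.3%. ZP3, an egg coat glycoprotein, alone took 2.04% of the F5 reads and 15.4% of the F1 reads. Reads taken by 1 gene lower the FPKM of all others. The median log2 difference of all genes kept was -0.40 as deposited and -0.25 with a common FPKM total over all genes but ZP3. The part of ZP3 in the median as deposited was not tested. After median-ratio scaling, which centres the differences near 0 by its method, the median was 0.0028. That scaling multiplies every F1 to F5 fold by 1.39. Below, counts over a gene list are as deposited with those after scaling in parentheses, and folds of single genes are as deposited. The median of a list is given relative to the median of all genes. Lists hold only the members found by name that passed the filter on low values, and a member that passed through 1 library alone had to differ.

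The labelled cell type was read against marker genes. Of 22 listed granulosa markers 20 were found by name and 19 passed the filter, with a summed level of 27086 FPKM in F5 distal and 127869 FPKM in F1 distal cells. ZP3 alone gave 14816 and 111496 FPKM of it, and INHA, FOXL2, NR5A1 and HSD3B2, described below, were abundant in both libraries. Of the 19 granulosa markers, 7 were at least 2-fold higher in F1 and 5 lower (9 and 4), against 5.36% and 17.8% of all genes. The lower ones as deposited were INHBB, WNT4, FST, GATA4 and FSHR, and AMH was low in both libraries. The markers of theca and stroma summed to 22.5 and 10.6 FPKM over 15 genes, with LUM and CYP19A1 at 0 in both, and those of endothelium to 59.6 and 52.5 FPKM over 12 genes, of which EGFL7 made up most and VWF stood at 0 in F1. Leukocyte markers summed to 8.79 and 7.204 FPKM, erythroid ones to 1.37 and 0.818 FPKM, oocyte ones to 5.94 and 1.74 FPKM and those of ovarian and oviduct epithelium to 11.6 and 5.52 FPKM. The germ cell marker DDX4, the leukocyte markers CD4 and SPI1 and the oviduct marker OVALY were at 0 in both distal libraries. As deposited, each sum of another cell type was lower in F1. Those of endothelium and leukocytes were lower by less than the factor of 1.39 that scaling applies, so after scaling these sums lie higher in F1. CYP17A1, a theca enzyme of androgen synthesis, stood at 2.17 and 0.305 FPKM, NR2F2, a stromal nuclear receptor, at 5.65 and 0.469 FPKM and EPCAM, an epithelial adhesion molecule, at 7.54 and 0.571 FPKM in F5 and F1. CYP17A1 and NR2F2 were among the 3 lower of 5 theca and stroma markers kept, and the other 2 were within 2-fold. EPCAM was the 1 lower of 4 epithelial markers kept, and the other 3 were within 2-fold. The part of other cell types in the differences below was not tested, and in tissue samples fewer cells of a type cannot be told apart from less RNA per cell.

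Averaged over the 4 libraries, 11203 of 19309 genes reached 1 FPKM. Among them 601 (5.36%) stood at least 2-fold higher in F1 distal cells and 1990 (17.8%) at least 2-fold lower, on the log2(FPKM + 1) scale. After median-ratio scaling 1071 genes (9.56%) were higher and 1199 (10.7%) lower. The lower genes far outnumbered the higher ones as deposited, and the numbers were close after scaling, which centres the differences near 0 by its method. Past 4-fold, 187 genes were higher and 536 lower as deposited, and past 8-fold 53 and 152. As deposited, 25.2% of genes had a difference above 0. After scaling the share was 50.2%, which follows from that centring and is not a separate result. The split also differed with the level of a gene. Among the 699 genes that averaged at least 100 FPKM in the distal pair, 11.2% were higher and 11% lower, with a median of -0.07. Among the 3096 genes between 1 and 5 FPKM, 6.07% were higher and 22.5% lower, with a median of -0.43. The counts of a list below are to be read against these shares of all genes, and where a list's counts lie near them the genes are given as single values.

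**Figure D1:**
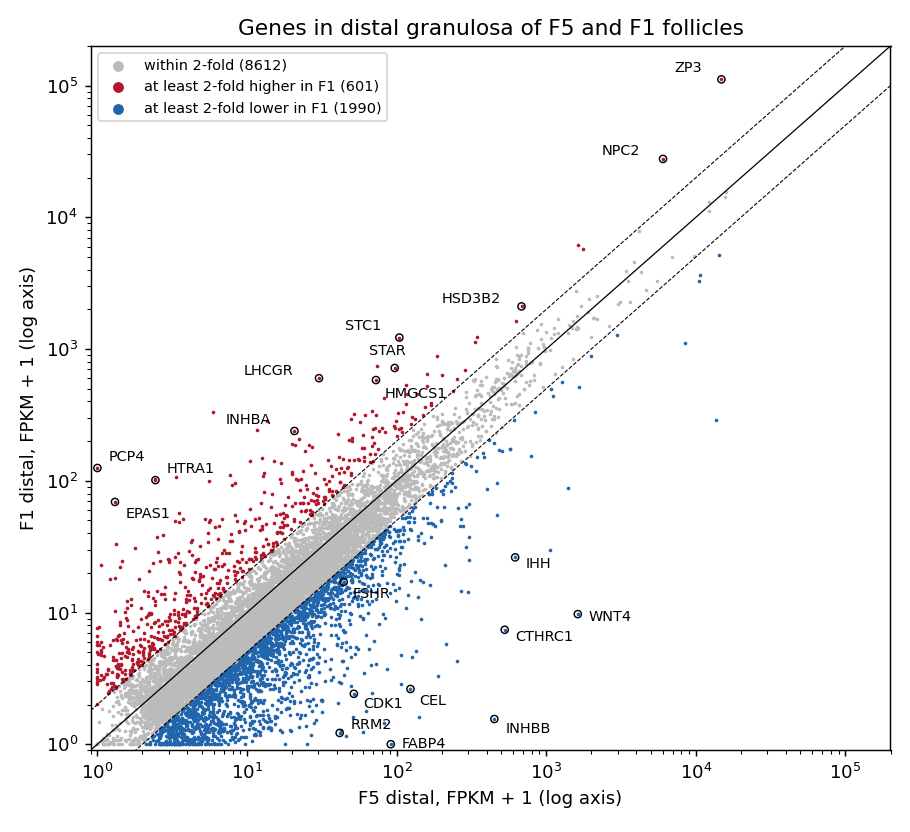
Each point is 1 of 11203 genes, with its level in F5 distal cells (x axis) and F1 distal cells (y axis) as FPKM + 1 on log axes; the solid line marks equal levels and the dashed lines 2-fold differences. Of the labelled genes, INHBB, WNT4 and FABP4 lie farthest below the line, PCP4 and EPAS1 farthest above it, and ZP3 is the most abundant gene in F1.

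Of the 15 named genes with the largest differences upwards in F1 distal cells, those other than LHCGR had at most 10.6 FPKM in F5 distal cells. PCP4 (ENSGALG00000022819, chromosome 1, 107560209 to 107560977, positions as the authors' files give them, which name no build), a small calmodulin-binding peptide, was read 0 times in F5 distal cells and 327 times in F1 distal cells, 124 FPKM. Against a floor of 3 reads this was at least 136-fold higher. EPAS1 (ENSGALG00000010005, chromosome 3, 25951104 to 25982708) encodes a transcription factor that low oxygen stabilises. It stood at 0.311 FPKM in F5 distal and 68.1 FPKM in F1 distal cells and was 219-fold higher in F1 (130.3 to 401). Here and below the range in parentheses is a 95% exact binomial interval from the reads behind the FPKM, which covers counting error only. HTRA1 (ENSGALG00000009546, chromosome 6, 30810573 to 30839263), a secreted serine protease, stood at 1.44 FPKM in F5 distal and 100.2 FPKM in F1 distal cells, 69.5-fold higher in F1 (51.6 to 95.9). Cholecystokinin, CCK, a peptide hormone best known from gut and brain, was at 0.341 and 32.03 FPKM in F5 and F1 distal cells, 93.9-fold higher in F1 (36.3 to 347). RPH3A, an effector of Rab proteins in vesicle release, stood at 4.58 and 98.3 FPKM, and CTNNA2, the neural form of alpha-catenin, at 2.497 and 55.7 FPKM. DYNC1I1, an intermediate chain of cytoplasmic dynein, was read 7 times in F5 and 463 times in F1, 82.3-fold higher in F1 (39.6 to 206). PIP5K1B, which makes a membrane phosphoinositide, stood at 10.6 FPKM in F5 distal and 241 FPKM in F1 distal cells, 22.8-fold higher in F1 (20.8 to 25.03). The kinase gene STK17A was 51.6-fold higher in F1 (35.04 to 79.4), and 3 genes of less well known function, FAM84A, C6orf132 and KIAA1211, were 71.7-fold, 19.03-fold and 21.6-fold higher.

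Of the 1990 genes lower in F1, INHBB, WNT4 and FABP4 were among the named ones with the largest differences on the log2(FPKM + 1) scale. The folds printed here are FPKM ratios, which can rank genes in another order. INHBB (ENSGALG00000028770, chromosome 7, 25068118 to 25068894) encodes the inhibin and activin subunit beta B. It stood at 449 FPKM in F5 distal and 0.554 FPKM in F1 distal cells. These are 6055 and 6 reads, 811-fold lower in F1 (373 to 2212). WNT4 (ENSGALG00000004790, chromosome 21, 6300381 to 6312118), which signals through WNT receptors between ovarian cells, stood at 1624 FPKM in F5 distal and 8.72 FPKM in F1 distal cells, 186-fold lower in F1 (160.5 to 217). FABP4 (ENSGALG00000015767, chromosome 2, 121225723 to 121228944), which carries fatty acids, was read 742 times in F5 and 0 times in F1, at least 199-fold lower against a floor of 3 reads. Its neighbour FABP5, on the same chromosome, stood at 106 and 1.87 FPKM, 56.7-fold lower in F1 (40.5 to 82.1). Both carriers belong to one family, and near-identical stretches could be counted uncertainly between them. CTHRC1, a secreted protein with a collagen repeat, stood at 527 FPKM in F5 distal and 6.39 FPKM in F1 distal cells, 82.4-fold lower in F1 (64.6 to 107), and CEL, a bile salt-stimulated lipase, at 123 and 1.63 FPKM, 75.4-fold lower in F1 (55.3 to 106). TMEM72, a membrane protein, stood at 140.0 and 0.618 FPKM and EMP1, another one, at 58.2 and 0.240 FPKM, the latter on 4 reads in F1. The secreted proteases HTRA3 (44.9-fold lower) and ADAMTS9 (78.7-fold lower), the phosphatase PHOSPHO1 (32.2-fold lower) and the growth factor IGF2 (34.7-fold lower) followed. HTRA3 and HTRA1 belong to one protease family and lay on opposite sides.

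Any read in F5 distal cells and 0 in F1 distal cells were found for 1453 of 19309 genes, and the reverse for 491. The F1 distal library was the shallower, with 13948790 reads against 17351242, and ZP3 took 15.4% of them against 2.04% in F5 distal. The part of depth in these counts and in those at 10 reads was not tested. Reads of 175 genes numbered at least 10 in the F5 distal library and 0 in the F1 distal library, of which 14 were also at 0 in F1 proximal cells. The reverse at 10 reads held for 26 genes, of which 5 were at 0 in F5 proximal cells as well. Beside FABP4, the most deeply read of the first kind were SPTSSB, a subunit of the enzyme that starts sphingolipid synthesis, with 500 reads, SLCO2B1, an organic anion transporter, with 332, GPRC5C, an orphan receptor, with 135, and EXO1, a DNA repair exonuclease, with 121. These were at least 134-fold, 88.97-fold, 36.2-fold and 32.4-fold lower in F1. Beside PCP4, those of the second kind were DOK5, an adaptor of receptor tyrosine kinases, with 199 reads, CAV1, which forms caveolae, with 56, MMP10, a matrix metalloproteinase, with 50, and VPAC2, a receptor of vasoactive intestinal peptide, with 39. They were at least 82.5-fold, 23.2-fold, 20.7-fold and 16.2-fold higher in F1, and the last 2 had a mean under 1 FPKM and were not among the genes kept.

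Genes of mitosis and the kinetochore were lower in F1 distal cells nearly as a whole. Of 76 listed genes of mitosis and the kinetochore 61 were found by name and all 61 passed the filter. Of these 57 were at least 2-fold lower and 0 higher (55 and 0), against 17.8% and 5.36% of all genes. The median of the list lay -2.01 relative to all genes on the log2 scale, and all 61 were below 0 as deposited, 59 after scaling. NUF2, a kinetochore protein that holds spindle microtubules, stood at 41.2 FPKM in F5 distal and 0.291 FPKM in F1 distal cells, 142-fold lower in F1 (64.97 to 388). CDK1, the kinase that drives entry into mitosis, stood at 50.8 and 1.41 FPKM, 35.9-fold lower in F1 (23.3 to 58.2). PLK1, a kinase of spindle assembly, was 27.3-fold lower in F1 (20.3 to 37.6), and PRC1, which bundles the central spindle, 23.6-fold lower in F1 (16.9 to 33.8). The members within 2-fold included MAD2L2, also a subunit of a translesion polymerase, at 27.1 and 22.3 FPKM. CENPO, listed as a kinetochore protein, stood at 1478 and 1435 FPKM, far above the other members in both libraries.

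Of 49 DNA replication genes 35 were at least 2-fold lower and 0 higher (31 and 1), with a median -1.20 relative to all genes. RRM2, the regulated subunit of ribonucleotide reductase, stood at 40.6 FPKM in F5 distal and 0.218 FPKM in F1 distal cells on 1389 and 6 reads, 186-fold lower in F1 (85.3 to 508). TK1, which salvages thymidine, stood at 50.5 and 0.599 FPKM, MCM3, of the replicative helicase, at 40.4 and 1.97 FPKM and CDT1, which loads that helicase, at 51.7 and 3.86 FPKM. MCM2 was 12.8-fold lower in F1 (10.9 to 15.05) and MKI67, the antigen of cycling cells, 34.1-fold lower in F1 (17.8 to 75.2). PCNA, the sliding clamp that repair also uses, was 1.51-fold lower in F1 (1.37 to 1.67) and so within 2-fold. POLA2 and RPA1, which also serve replication, stood at 21.6 and 30.2 FPKM and 61.4 and 78.2 FPKM, and ORC3 at 5.904 and 11.3 FPKM, the highest difference of the list.

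Among 41 cyclins, cyclin-dependent kinases and their inhibitors 15 were lower and 0 higher (11 and 0), against 17.8% and 5.36% of all genes. The relative median of that list was -0.17. E2F1, a transcription factor of S phase genes, stood at 23.7 and 3.83 FPKM, and CCNE2, an S phase cyclin, at 4.32 and 0.232 FPKM. CCND1, the cyclin that growth factors induce, was 3.62-fold lower in F1 (2.86 to 4.64) and CCND2 1.99-fold lower in F1 (1.64 to 2.42). Of the inhibitors CDKN2C was 15.1-fold lower in F1 (6.74 to 42.1), while CDKN1B stood at 53.6 and 48.2 FPKM and CDKN1A at 2.48 and 1.801 FPKM, both within 2-fold. MYC stood at 5.72 and 7.27 FPKM and CCND3 at 23.7 and 29.96 FPKM. Of 42 genes of chromatin assembly and modification 12 were lower and 1 higher (9 and 1). DNMT3B, a de novo DNA methyltransferase, stood at 144 FPKM in F5 distal and 7.97 FPKM in F1 distal cells, 18.04-fold lower in F1 (16.4 to 19.8), and UHRF1, which maintains methylation at replication forks, at 17.1 and 0.867 FPKM. HDAC7, a class II histone deacetylase, was the 1 higher gene, at 3.49 and 19.4 FPKM. STMN1, which destabilises microtubules and is high in dividing cells, stood at 299.6 and 13.3 FPKM, 22.5-fold lower in F1 (19.3 to 26.4), and BIRC5, a survival and mitosis protein, at 48.1 and 4.48 FPKM.

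**Figure D2:**
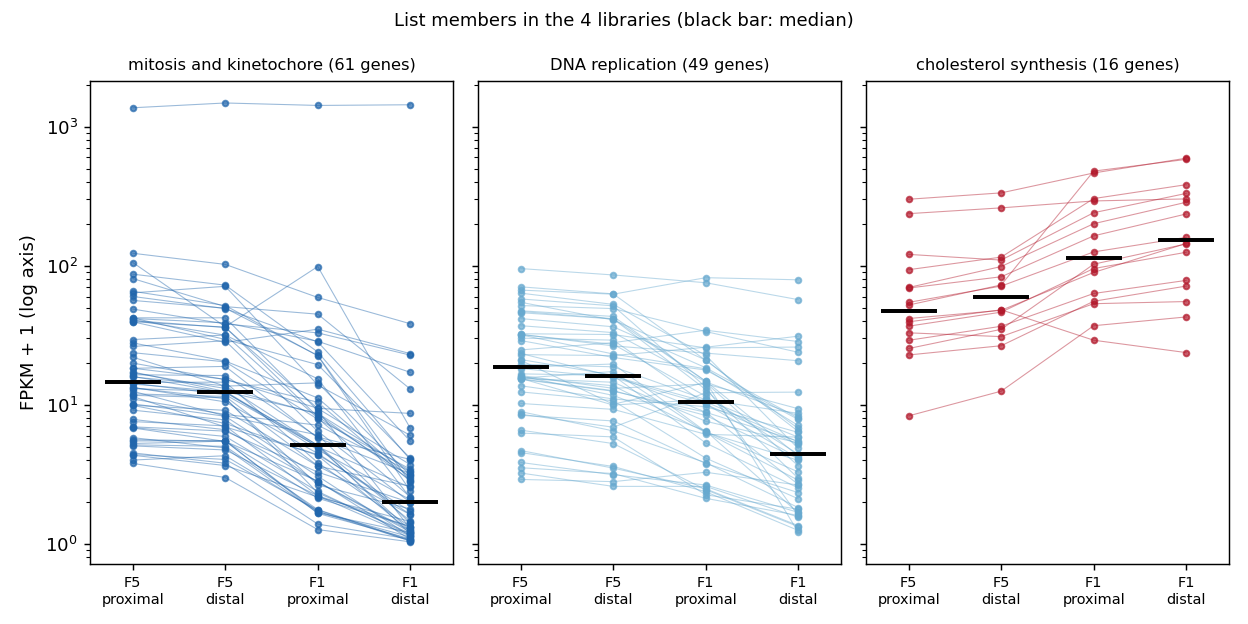
Levels (FPKM + 1, log axis) of the members of the lists mitosis and kinetochore, DNA replication and cholesterol synthesis in each of the 4 libraries; each line is 1 gene and the black bars are medians over the list. The mitosis median was 11.5 FPKM in F5 distal and 0.989 FPKM in F1 distal cells and the replication median 15.3 and 3.43 FPKM, while the cholesterol synthesis median was 58.8 and 151.3 FPKM.

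Receptors of the pituitary hormones lay on opposite sides. LHCGR (ENSGALG00000009095, chromosome 3, 7505304 to 7524818), the receptor of luteinizing hormone, stood at 29.3 FPKM in F5 distal and 600.0 FPKM in F1 distal cells, 20.5-fold higher in F1 (19.3 to 21.7). FSHR, the receptor of follicle-stimulating hormone, stood at 43.3 FPKM in F5 distal and 16.05 FPKM in F1 distal cells, 2.699-fold lower in F1 (2.49 to 2.93), and at 1.95-fold lower after scaling, just inside 2-fold on the log2(FPKM + 1) scale. ADCYAP1R1, the receptor of the neuropeptide PACAP, was at 0.302 and 17.4 FPKM, 57.8-fold higher in F1 (30.1 to 127), and PRLR, the prolactin receptor, at 0.8596 and 2.98 FPKM. MC5R, a melanocortin receptor, had 28 reads in F5 and 0 in F1. Of the 12 surface receptors of hormones kept, 3 were higher and 2 lower (4 and 1), and the progesterone-binding membrane protein PGRMC1 was level at 466 and 492 FPKM. Of the steroid receptors, ESR1, the alpha receptor of oestrogen, stood at 4.12 and 17.9 FPKM, 4.36-fold higher in F1 (3.62 to 5.27), and ESR2 at 1.87 and 0.878 FPKM. PGR, the nuclear progesterone receptor, was read 2 times in F5 distal cells and 0 times in F1 distal cells, which is under the floor of 3 reads in both.

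Of 30 genes of cyclic nucleotide signalling 2 were at least 2-fold higher and 6 lower (5 and 4), close to the 5.36% and 17.8% of all genes, with a relative median of 0.16. PDE4D, a phosphodiesterase that degrades cyclic AMP, stood at 7.25 FPKM in F5 distal and 95.6 FPKM in F1 distal cells, 13.2-fold higher in F1 (11.9 to 14.6), and ADCY9, a cyclase that makes it, at 36.04 and 107 FPKM, 2.98-fold higher in F1 (2.85 to 3.11). ADCY3, the cyclase with the highest level of the list, was within 2-fold at 183 and 152 FPKM. PDE7B stood at 6.26 and 1.01 FPKM and PDE10A at 4.15 and 0.738 FPKM, both lower, as was PKIA, an inhibitor of protein kinase A, at 4.89 and 0.617 FPKM. The regulatory subunit PRKAR2A was at 53.3 and 91.7 FPKM. Of 14 regulators of G protein signalling 1 was higher and 3 lower (2 and 2). GRK5, a kinase that desensitises receptors, was 4.05-fold higher in F1 (3.57 to 4.601), and RGS5, which shortens G protein signals, stood at 3.68 and 0.0223 FPKM on 1 read in F1. GRK5 overlaps RGS10 on the other strand in the authors' coordinates, and the strand setting of the counting is not known here.

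**Figure D3:**
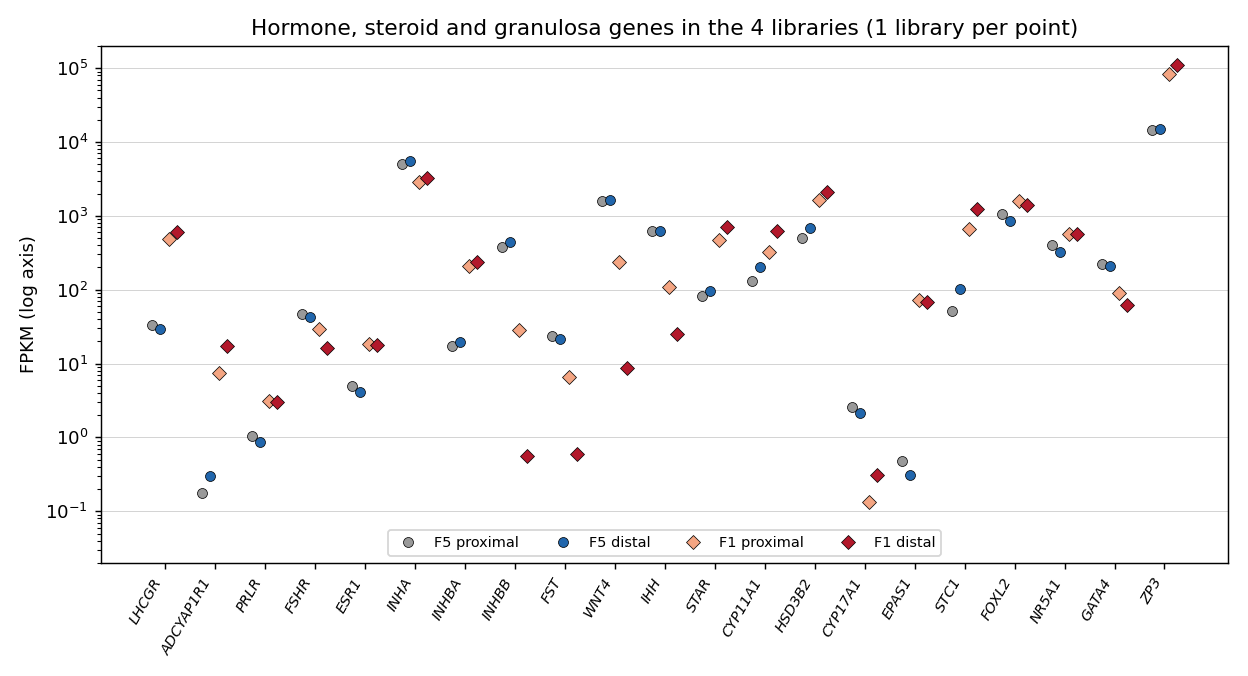
FPKM (log axis) of 21 hormone, steroid and granulosa genes in the F5 proximal, F5 distal, F1 proximal and F1 distal library, 1 library per point. LHCGR, INHBA, STAR, EPAS1 and STC1 lie higher in both F1 libraries, INHBB, FST, WNT4 and IHH lie lower, and the F1 distal point of these last 4 is below the F1 proximal one.

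The carrier and the enzymes that lead from cholesterol to progesterone (STAR, CYP11A1 and HSD3B2) were higher in F1 distal cells. STAR (ENSGALG00000003242, chromosome 22, 2263879 to 2266815), which carries cholesterol into mitochondria, stood at 96.2 FPKM in F5 distal and 717 FPKM in F1 distal cells, 7.46-fold higher in F1 (7.17 to 7.76). CYP11A1, which cuts the cholesterol side chain, stood at 202 and 633 FPKM, 3.14-fold higher in F1 (3.08 to 3.204), and HSD3B2, which makes progesterone, at 682 and 2106 FPKM, 3.09-fold higher in F1 (3.05 to 3.13). CYB5A, an electron carrier to cytochromes P450, was 3.43-fold higher in F1 (3.21 to 3.68). CYP17A1, which turns progestins into androgens, was 7.12-fold lower in F1 (3.26 to 18.4), HSD17B1, which makes oestradiol, 5.697-fold lower in F1 (3.67 to 9.24), CYP21A2, an enzyme of corticoids, 22.2-fold lower in F1 (9.28 to 69.4) and SRD5A3, of a family of steroid reductases, 3.67-fold lower in F1 (3.19 to 4.24). CYP19A1, the aromatase, had 0 reads in both distal libraries. In all, 4 of 20 steroidogenesis genes were higher and 6 lower (5 and 4), and the list median was -0.01 relative to all genes. STAR overlaps ASH2L on the opposite strand in the authors' coordinates, and ASH2L, named only for that overlap, stood at 59.3 and 139 FPKM.

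Cholesterol synthesis was the list with the largest positive median of those with at least 10 genes kept. Of 21 listed genes 17 were found by name and 16 passed the filter. Of these 12 were at least 2-fold higher and 1 lower (14 and 0). The median lay 1.86 above that of all genes. HMGCS1, an early enzyme of the pathway, stood at 71.8 FPKM in F5 distal and 581 FPKM in F1 distal cells, 8.09-fold higher in F1 (7.74 to 8.45). SQLE, which oxidises squalene, stood at 45.4 and 124 FPKM, 2.73-fold higher in F1 (2.59 to 2.88), MSMO1, a sterol demethylation enzyme, at 114 and 382 FPKM, 3.34-fold higher in F1 (3.21 to 3.47), and DHCR7, of the last steps, at 33.9 and 142 FPKM, 4.201-fold higher in F1 (3.96 to 4.46). FDFT1, which makes squalene, was within 2-fold at 259.7 and 301 FPKM. LBR, a sterol reductase that is also the lamin B receptor of the nuclear envelope, was the 1 lower member at 47.2 and 22.8 FPKM, and 1.498-fold lower after scaling, within 2-fold.

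Of 16 genes of cholesterol regulation, uptake and efflux 6 were higher and 1 lower (7 and 0), with a relative median of 0.68. NPC2, which moves cholesterol out of lysosomes, stood at 6033 FPKM in F5 distal and 27755 FPKM in F1 distal cells, 4.601-fold higher in F1 (4.57 to 4.63), and took 3.41% of the F1 reads against 0.740% in F5. SCAP, which escorts sterol-regulated transcription factors, was 3.36-fold higher in F1 (3.29 to 3.43). STARD4, a cytosolic sterol carrier, was 3.72-fold higher in F1 (3.36 to 4.13), and NCEH1, which frees stored cholesterol, 2.98-fold higher in F1 (2.79 to 3.19). SREBF2, a transcription factor that SCAP escorts, stood at 173 and 310.2 FPKM and INSIG1, its retention protein, at 39.7 and 50.5 FPKM, both within 2-fold. APOA1, a lipoprotein, was the 1 lower gene at 1998 and 891 FPKM, and after scaling 1.62-fold lower, under 2-fold. Of fatty acid synthesis and desaturation 7 of 17 genes were higher and 1 lower (7 and 1). The desaturases SCD, FADS2 and FADS6 stood at 19.1 and 111 FPKM, 6.98 and 33.8 FPKM and 2.297 and 25.5 FPKM in F5 and F1, 5.797-fold, 4.84-fold and 11.1-fold higher, while ACACB, an acetyl-CoA carboxylase that limits fatty acid oxidation, stood at 52.7 and 4.44 FPKM, 11.9-fold lower in F1 (10.8 to 13.1).

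The handling of stored and circulating lipid leaned the other way. Of 28 genes of fatty acid oxidation, carriers and lipid droplets 12 were lower and 2 higher (6 and 3), with a relative median of -0.47. Beside FABP4, FABP5 and CEL, the endothelial-type lipase LIPG stood at 45.8 and 2.804 FPKM, 16.3-fold lower in F1 (13.6 to 19.7). Lipoprotein lipase, LPL, stood at 95.8 and 249 FPKM, 2.597-fold higher in F1 (2.499 to 2.699), and PLTP, which transfers phospholipids between lipoproteins, at 346 and 1235 FPKM, 3.57-fold higher in F1 (3.49 to 3.66).

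Of 8 ligands of the TGF-beta superfamily kept, 1 was higher and 3 were lower (1 and 2), against 5.36% and 17.8% of all genes. The relative median of the ligands was -0.42. INHBA, the beta A subunit, stood at 19.8 FPKM in F5 distal and 238 FPKM in F1 distal cells, 12.04-fold higher in F1 (11.04 to 13.1), opposite to INHBB, and INHA, the alpha subunit they share, at 5479.8 and 3269.5 FPKM, 1.68-fold lower in F1 (1.66 to 1.69), within 2-fold. BMP2 stood at 11.1 and 0.412 FPKM and TGFB3 at 22.3 and 7.93 FPKM, the latter within 2-fold on the log2(FPKM + 1) scale after scaling. AMH, made by granulosa of small follicles, was at 1.55 and 0.508 FPKM, low in both distal libraries. Among the antagonists, follistatin FST, which binds activin, stood at 21.6 FPKM in F5 distal and 0.588 FPKM in F1 distal cells, 36.8-fold lower in F1 (25.1 to 56.03), FSTL1 at 466 and 53.5 FPKM, 8.698-fold lower in F1 (8.06 to 9.403), and the pseudoreceptor BAMBI at 93.9 and 15.6 FPKM, 6.03-fold lower in F1 (5.59 to 6.499). CHRDL1 and GREM1, which bind bone morphogenetic proteins, stood at 0.426 and 21.1 FPKM and 3.73 and 24.5 FPKM, 49.5-fold and 6.56-fold higher in F1. In that list of 16 antagonists and targets 8 were lower and 3 higher (5 and 4), with a relative median of -0.58. Of 21 receptors and SMADs 2 were higher and 0 lower (2 and 0), with a relative median of 0.22. SMAD3, the carrier of activin and TGF-beta signals, was one of them at 49.2 and 198 FPKM, 4.03-fold higher in F1 (3.87 to 4.199), and SMURF1, a ligase of that pathway, the other at 19.6 and 48.2 FPKM.

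Hedgehog and WNT ligands were among the genes with the largest differences, and the receptors named here lay on either side. IHH (ENSGALG00000011347, chromosome 7, 21803719 to 21806885), a hedgehog ligand that granulosa cells send to the theca, stood at 619 FPKM in F5 distal and 25.2 FPKM in F1 distal cells, 24.5-fold lower in F1 (21.98 to 27.5). SUFU, a brake on hedgehog signals, stood at 95.5 and 261 FPKM, 2.74-fold higher in F1 (2.61 to 2.87), while PTCH1 was level at 1.68 and 1.26 FPKM and SMO at 79.6 and 77.2 FPKM. Of 17 Notch and Hedgehog genes 2 were higher and 2 lower (3 and 1). In the WNT list of 23 genes 8 were lower and 2 higher (4 and 3), with a relative median of -0.28. RSPO3, which amplifies WNT signals, stood at 18.03 and 0.896 FPKM, NOTUM, which inactivates WNT ligands, at 8.89 and 0.129 FPKM on 2 reads in F1, and the receptor FZD1 at 47.4 and 14.2 FPKM. FZD8, another receptor, and the ligand WNT16 were the 2 higher genes at 1.84 and 14.6 FPKM and 5.03 and 20.5 FPKM.

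Other secreted factors and growth factor receptors named here lay on either side. STC1, a glycoprotein hormone, stood at 103 FPKM in F5 distal and 1221 FPKM in F1 distal cells, 11.8-fold higher in F1 (11.2 to 12.5), and CTGF, a matricellular factor, at 49.3 and 211 FPKM, 4.28-fold higher in F1 (4.07 to 4.51). FGF12 stood at 2.53 and 19.4 FPKM and the placental growth factor PGF at 1078 and 1218 FPKM. IGFBP5, which binds insulin-like growth factors, stood at 60.3 and 317 FPKM, 5.26-fold higher in F1 (4.91 to 5.64), and IGFBP3 at 0.612 and 4.12 FPKM, against IGF2 at 126 and 3.63 FPKM. PAPPA and PAPPA2, related proteases that cut such binding proteins, differed in opposite ways, at 0.364 and 2.82 FPKM and 7.24 and 0.461 FPKM. PIK3R1, the regulatory subunit of phosphoinositide kinase, was 3.998-fold lower in F1 (3.58 to 4.48). Of 27 growth factor ligands 5 were higher and 4 lower (7 and 4). Of 27 genes of insulin-like growth factor signalling 4 were higher and 3 lower (6 and 2). Of 22 receptor tyrosine kinases and related receptors 3 were higher and 5 lower (4 and 4). The shares of all genes were 5.36% higher and 17.8% lower (9.56% and 10.7%). FGFR2 stood at 0.945 and 4.61 FPKM, EPHA5 at 3.002 and 12.6 FPKM, EPHB2 at 10.9 and 1.84 FPKM and FGFR1, the highest of them in level, at 179 and 129.7 FPKM.

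The transcription factors used as granulosa markers were abundant in both libraries. FOXL2 stood at 861 FPKM in F5 distal and 1391 FPKM in F1 distal cells, 1.62-fold higher in F1 (1.58 to 1.65), NR5A1, a regulator of steroid genes, at 328 and 573 FPKM, 1.75-fold higher in F1 (1.72 to 1.78), GATA6 at 233 and 276 FPKM and NR5A2 at 178 and 164 FPKM. GATA4 stood at 206 and 61.99 FPKM, 3.33-fold lower in F1 (3.14 to 3.54), so the 2 GATA factors of the ovary were not alike. EMX2, a homeobox factor of the urogenital tract, was 5.53-fold lower in F1 (4.76 to 6.45) and SNAI2, a repressor of epithelial genes, 5.07-fold lower in F1 (4.203 to 6.15). Of 35 such factors 3 were higher and 11 lower (9 and 7). Of 23 nuclear receptors 1, ESR1, was higher and 6 were lower (3 and 5), among them the vitamin D receptor VDR at 19.4 and 4.83 FPKM, ESRRB at 40.5 and 12.98 FPKM and NR2F1 at 49.1 and 16.1 FPKM.

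Of 15 clock genes kept 6 were lower and 0 higher (4 and 0), with a relative median of -0.39. PER2 stood at 8.397 and 2.19 FPKM, 3.83-fold lower in F1 (3.31 to 4.46), CRY2 at 74.7 and 25.6 FPKM, 2.91-fold lower in F1 (2.74 to 3.101), and BHLHE40, a repressor of the clock, at 38.6 and 7.93 FPKM, 4.87-fold lower in F1 (4.08 to 5.85). CLOCK stood at 4.51 and 4.29 FPKM and PER3 at 1.68 and 1.71 FPKM, both level. The time of day of sampling is not stated in the labels. Among 18 immediate early and stress factors 2 were higher and 4 lower (4 and 4). JUN, of the AP-1 complex, stood at 24.9 and 185 FPKM, 7.42-fold higher in F1 (6.68 to 8.26), and EGR1 at 0.441 and 3.496 FPKM, 7.92-fold higher in F1 (4.86 to 13.6), whereas DUSP1, a phosphatase of kinases in that response, was at 4.89 and 0.495 FPKM and the pseudokinases TRIB1 and TRIB2 at 44.9 and 4.18 FPKM and 29.2 and 3.62 FPKM. SIK1, a kinase that cyclic AMP induces in other tissues, was 22.4-fold lower in F1 (14.8 to 35.7).

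The matrix around the granulosa layer differed in both directions. Of 27 collagens, laminins and basement membrane genes 6 were higher and 9 lower (7 and 6). ELN, elastin, stood at 82.7 and 8.16 FPKM, 10.1-fold lower in F1 (9.05 to 11.4), COL11A1 at 3.44 and 0.0231 FPKM and the abundant SPARC, a collagen-binding glycoprotein, at 9760.5 and 5110.1 FPKM, 1.91-fold lower in F1 (1.897 to 1.92). FBLN1 and TNR, matrix glycoproteins, stood at 0.103 and 3.71 FPKM and 0.408 and 7.40 FPKM, 35.9-fold and 18.1-fold higher. The basement membrane collagen COL4A4 was within 2-fold at 591 and 382 FPKM. Of 37 extracellular proteases and inhibitors 6 were higher and 15 lower (7 and 12). TIMP2 and TIMP3, inhibitors of metalloproteinases, stood at 21.3 and 206 FPKM and 67.9 and 214 FPKM, 9.67-fold and 3.16-fold higher, and ADAMTS3, a procollagen protease, at 2.72 and 49.9 FPKM, 18.3-fold higher in F1 (15.9 to 21.2). ADAMTS15 stood at 269 and 13.6 FPKM, 19.8-fold lower in F1 (18.2 to 21.7), and the inhibitor SERPINE2 at 18.4 and 0.668 FPKM, 27.5-fold lower in F1 (17.5 to 45.98). Of 14 proteoglycan genes 1 was higher and 5 lower (3 and 5), with PRELP at 19.5 and 1.07 FPKM and versican, VCAN, at 61.4 and 20.4 FPKM, and GPC5, a glypican, at 0.393 and 5.78 FPKM.

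At cell contacts, 4 of 31 junction genes were higher and 11 lower (5 and 5). JUP, a plaque protein of desmosomes, stood at 6.03 and 28.9 FPKM, 4.798-fold higher in F1 (4.24 to 5.44). CDH3, a cadherin, stood at 35.7 and 3.45 FPKM, 10.3-fold lower in F1 (8.72 to 12.4), and the connexin GJB1 at 18.6 and 1.71 FPKM. GJA1, the main connexin of granulosa cells, was level at 358 and 349 FPKM. Of 42 integrin and cytoskeleton genes 13 were lower and 0 higher (10 and 4), although ACTB, cytoplasmic actin, was level at 1401 and 1321 FPKM. MAP1B, a microtubule protein, was 13.05-fold lower in F1 (10.9 to 15.7), and ezrin, EZR, which links membrane and actin, 7.32-fold lower in F1 (6.07 to 8.89).

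Of 62 cytosolic ribosomal protein genes 0 were higher and 0 lower (3 and 0), and the list median lay 0.63 above that of all genes, from RPSA at 828 and 581 FPKM to RPLP0 at 1583 and 2754 FPKM. Of 51 translation factors and tRNA synthetases 0 were higher and 0 lower (1 and 0), with a relative median of 0.20. Of 47 nuclear genes of oxidative phosphorylation 1 was higher, NDUFA4 at 132 and 292 FPKM, and 1 lower, NDUFB4 at 82.9 and 40.4 FPKM (3 and 0 after scaling), with a relative median of 0.32. The median of both of these lists was below 0 as deposited and above 0 after scaling. As deposited it was -0.08 for oxidative phosphorylation, against -0.07 for the 699 genes that averaged at least 100 FPKM in the distal pair. The part of gene level in these medians was not tested. Of 35 proteasome genes 0 were higher and 1 was lower, PSME4, a proteasome activator, at 30.03 and 9.66 FPKM. Of 61 ribosome biogenesis genes 11 were lower and 0 higher (8 and 0), the lower ones close to the 17.8% of all genes, with a relative median of -0.14. Of the 11, 6 were among the 7 genes whose names begin with RRP, and 5 among the other 54. NPM1 and NCL, abundant nucleolar proteins, stood at 502 and 549.9 FPKM and 164 and 148 FPKM.

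The counts in this paragraph stand against 5.36% higher and 17.8% lower of all genes (9.56% and 10.7%). In glycolysis and glucose handling 4 of 37 genes were higher and 6 lower (7 and 5). HK2 and ENO2, isoforms found in muscle and neurons, stood at 3.48 and 23.1 FPKM and 0.609 and 6.91 FPKM, 6.63-fold and 11.4-fold higher, while LDHA stood at 41.1 and 8.55 FPKM, 4.81-fold lower in F1 (4.11 to 5.64), and SLC16A1, a lactate carrier, at 303 and 65.6 FPKM, 4.61-fold lower in F1 (4.45 to 4.78). GAPDH was at 997 and 1335 FPKM. Of 22 oxygen-sensing genes 3 were higher and 5 lower (3 and 4). EPAS1 and HK2 were 2 of the higher ones, CA9, a carbonic anhydrase induced in hypoxia, stood at 17.8 and 0.895 FPKM, EGLN3, an oxygen sensor, at 2.68 and 0.03699 FPKM on 1 read in F1, and VEGFA at 162 and 216 FPKM, within 2-fold. Of 23 tricarboxylic acid cycle genes 1 was higher, ME1 at 2.297 and 7.61 FPKM, and 3 were lower (1 and 1). Of 69 genes of folding and secretion in the endoplasmic reticulum 1 was higher, the chaperone CANX at 125 and 302 FPKM, and 7 lower (3 and 3), with KDELR3, which returns escaped proteins, at 54.6 and 4.29 FPKM, 12.7-fold lower in F1 (10.7 to 15.3). Of 46 lysosome and autophagy genes 3 were higher and 5 lower (8 and 2), and ATP6AP1, of the proton pump, stood at 11.4 and 67.1 FPKM, 5.88-fold higher in F1 (5.27 to 6.57). CTSA, a carboxypeptidase among the most read genes, stood at 4137 and 7900.0 FPKM. Of 39 redox genes 2 were higher and 8 lower (5 and 5), close to the shares of all genes. MGST3 stood at 402 and 86.2 FPKM, NQO1 at 59.1 and 13.8 FPKM and GPX3 at 236 and 476 FPKM.

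Of 41 innate immune genes 2 were higher and 9 lower (4 and 6), close to the 5.36% and 17.8% of all genes (9.56% and 10.7%). STAT6 stood at 7.61 and 48.6 FPKM, 6.38-fold higher in F1 (5.18 to 7.93). JAK3 stood at 7.32 and 0.0418 FPKM on 2 reads in F1 and TRIM25 at 97.9 and 11.3 FPKM. Of 11 cytokine and receptor genes 1 was higher and 1 lower (3 and 1), the lower one IL1RL1, a receptor of interleukin-33, at 16.1 and 0.248 FPKM. Of 32 apoptosis genes 3 were higher and 6 lower (4 and 2), against 5.36% and 17.8% of all genes (9.56% and 10.7%). The higher ones were BCL2, a survival protein, at 0.595 and 4.06 FPKM, and 2 genes known to promote death. These were TNFSF10 at 3.795 and 16.7 FPKM and DAPK2 at 1.099 and 8.201 FPKM. Of 37 aquaporins and ion channels 5 were higher and 10 lower (8 and 6). KCNJ5, an inward rectifier that G proteins open, stood at 1.64 and 23.7 FPKM, 14.5-fold higher in F1 (10.5 to 20.5), and AQP11 at 26.8 and 3.53 FPKM, 7.59-fold lower in F1 (5.97 to 9.79). Of 25 calcium and calmodulin genes 4 were higher and 5 lower (9 and 1), with a relative median of 0.69, and of 24 neuronal and vesicle genes 4 were higher and 6 lower (5 and 6). CADPS, which primes dense-core vesicles, stood at 10.4 and 50.03 FPKM, 4.83-fold higher in F1 (4.47 to 5.23), and the adhesion molecule CNTN1 at 0.0509 and 3.74 FPKM, while NCAM1 stood at 4.64 and 0.416 FPKM.

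The median of the retinoid list lay 0.34 above that of all genes, while the enzymes of breakdown named here were lower. The 3 members of the CYP26 family, which degrade retinoic acid, were all lower: CYP26A1 stood at 43.4 and 2.33 FPKM, CYP26B1 at 3.86 and 0.249 FPKM and CYP26C1 at 5.71 and 0.435 FPKM, 18.6-fold, 15.5-fold and 13.1-fold lower. STRA6, which takes up retinol, stood at 154 and 363 FPKM, 2.35-fold higher in F1 (2.29 to 2.42), the 1 higher gene of the 13 kept, of which 5 were lower (2 and 5). Of 11 prostaglandin genes 2 were higher and 2 lower (3 and 1), with TBXA2R, the thromboxane receptor, at 21.4 and 84.5 FPKM, 3.94-fold higher in F1 (3.55 to 4.39), ABCC4, an exporter of prostaglandins, at 0.225 and 1.61 FPKM and PTGR1, which inactivates them, at 124 and 16.4 FPKM, 7.56-fold lower in F1 (6.84 to 8.38). Of the 3 egg coat genes kept, ZP3 stood at 14816 and 111496 FPKM, 7.53-fold higher in F1 (7.499 to 7.55), and ZPD at 1619 and 6174 FPKM, 3.81-fold higher in F1 (3.77 to 3.86). ZP2, by contrast, was at 2.68 and 0.224 FPKM, and ZP1 was read 0 times in F5 distal cells and 1 time in F1 distal cells.

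**Figure D4:**
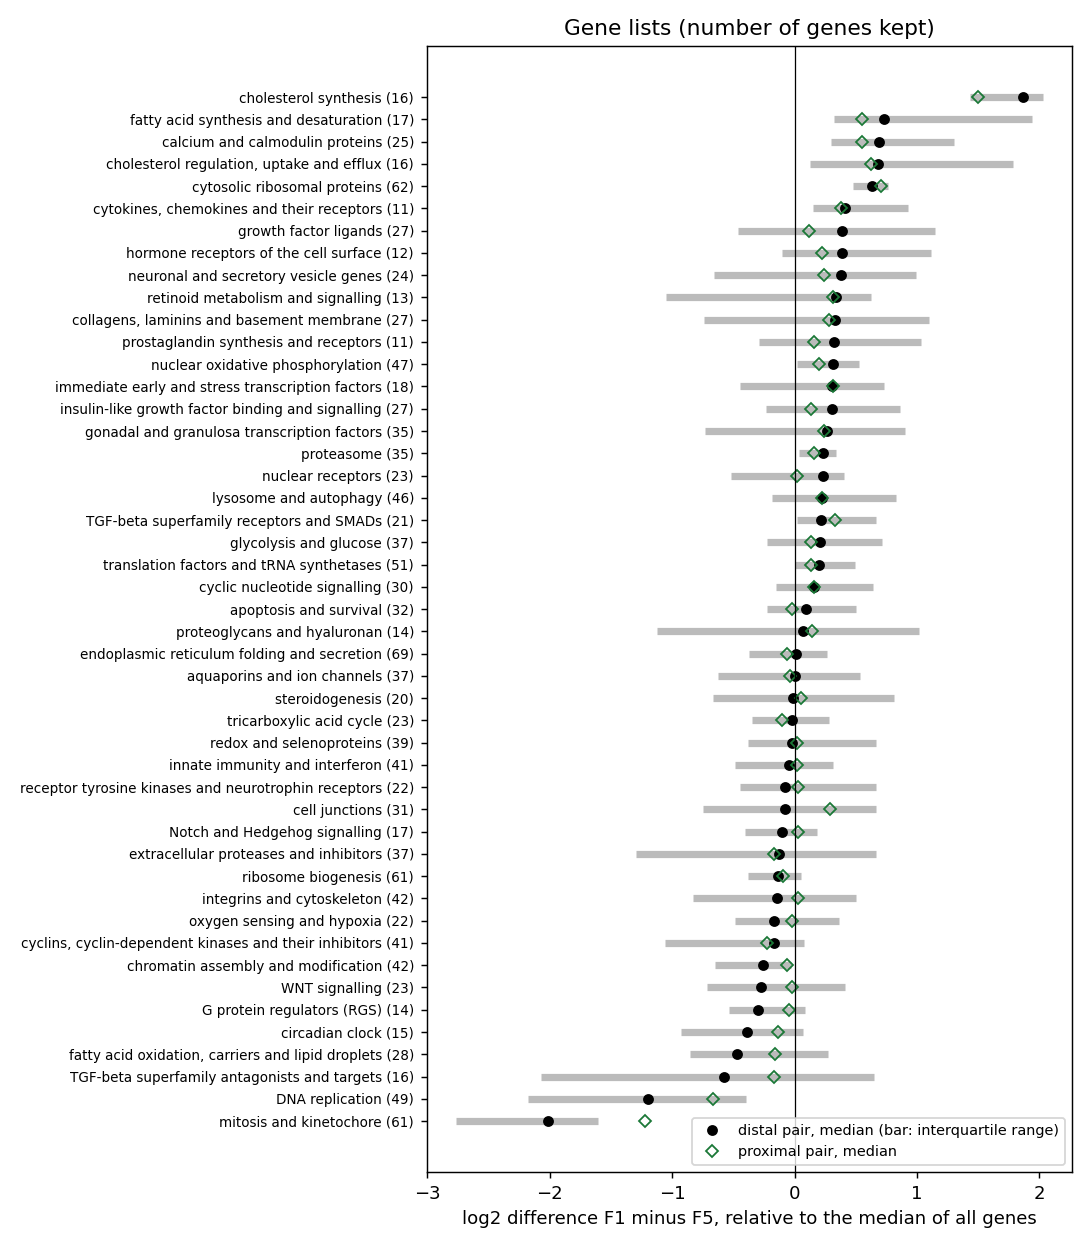
Median log2(FPKM + 1) difference, F1 minus F5, of 47 gene lists with at least 10 genes kept, relative to the median of all genes; filled circles are the distal pair with grey bars from the lower to the upper quartile, open diamonds the proximal pair, and the number of genes stands in parentheses. Mitosis and kinetochore (-2.01) and DNA replication (-1.20) lie lowest and cholesterol synthesis (1.86) highest in the distal pair.

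The proximal pair, F1 proximal against F5 proximal cells, shares no library with the distal pair and was read beside it. There 500 genes (4.46%) were at least 2-fold higher in F1 and 1103 (9.85%) lower, and after scaling 735 (6.56%) and 658 (5.87%). Of the genes higher in the distal pair 433 were also higher in the proximal pair, which is 72.0% of the distal and 86.6% of the proximal list. Of the lower ones 1020 were shared, 51.3% of the distal and 92.5% of the proximal list. Across genes, which are not independent, the differences of the pairs were correlated (Pearson r 0.90, Spearman rho 0.87). The labels do not say whether proximal and distal cells came from the same follicles or hens, so the pairs may not be independent either. The 1990 genes lower in the distal pair had a median of -1.48 there and of -1.02 in the proximal pair, and 1907 of them differed more in the distal pair. These genes were picked by their distal value, which favours the distal pair. The difference between the pairs was not tested, as each has 1 library per side.

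As deposited, each marker sum of another cell type was higher in the proximal than in the distal library, in F5 and in F1. Epithelial markers summed to 41.4 and 34.5 FPKM in F5 and F1 proximal cells, against 11.6 and 5.52 FPKM in distal cells. Oocyte markers summed to 26.5 and 16.1 FPKM, against 5.94 and 1.74 FPKM. The part of other cell types in the differences between the pairs was not tested. Some genes were far apart between the pairs. INHBB stood at 378 FPKM in F5 proximal and 28.5 FPKM in F1 proximal cells, 13.3-fold lower, against 811-fold in distal cells. WNT4 stood at 1600.3 and 237 FPKM, 6.75-fold lower against 186-fold, and TMEM72 at 130.5 and 22.6 FPKM, 5.78-fold lower against 226-fold. FABP4, at 0 reads in F1 distal cells, stood at 49.5 and 3.05 FPKM in the proximal pair. RRM2, TK1, CDK1 and PLK1 stood at 13.8, 12.4, 21.5 and 21.7 FPKM in F1 proximal cells, against 0.218, 0.599, 1.41 and 1.78 FPKM in F1 distal cells. The mitosis list was lower in both pairs, with a relative median of -1.22 in the proximal pair, where 48 of 61 members were at least 2-fold lower, and 58 of 61 members differed more in the distal pair against 8199 of all 11203 genes. Genes whose folds lay nearest in both pairs were the transcription factor CEBPB at 18.2 and 5.59 FPKM in distal and 20.9 and 6.52 FPKM in proximal cells, the syntrophin SNTB2 at 48.7 and 17.9 FPKM and 55.3 and 20.4 FPKM, the netrin receptor UNC5C at 27.8 and 66.1 FPKM and 28.5 and 67.7 FPKM, and the lysosomal protein PLBD1 at 1772 and 5779.9 FPKM and 1401 and 4578 FPKM.

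**Figure D5:**
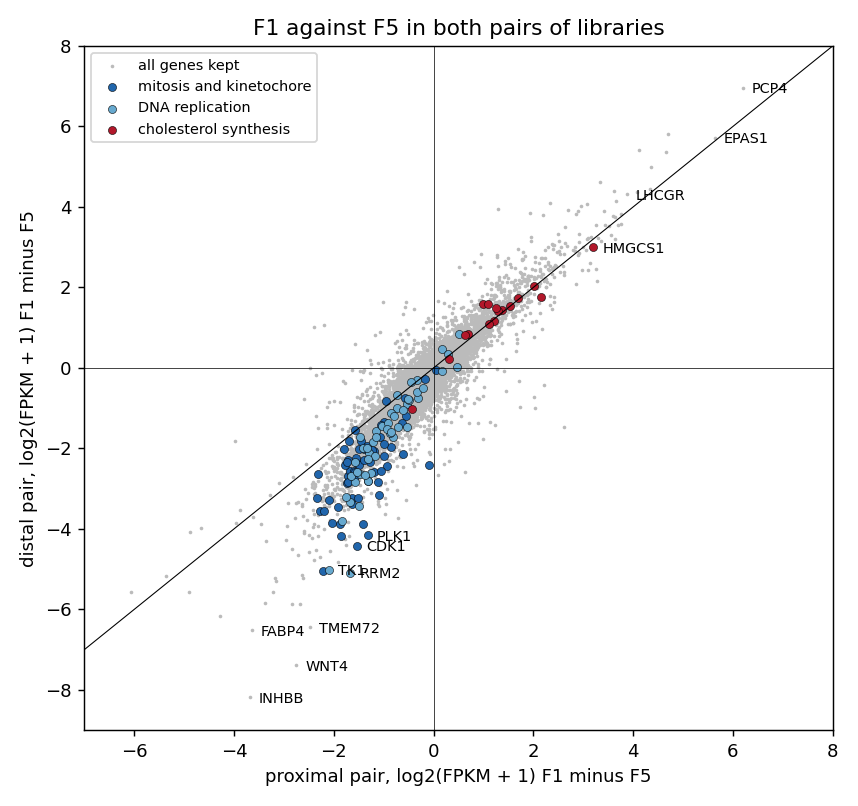
log2(FPKM + 1) difference, F1 minus F5, of each gene in the proximal pair (x axis) and the distal pair (y axis), with mitosis, DNA replication and cholesterol synthesis genes in colour; the line marks equal differences. INHBB, WNT4, FABP4 and TMEM72 and most mitosis genes lie below the line, and EPAS1 and HMGCS1 lie close to it.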

How the data were processed

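Poly-A RNA of granulosa cells was sequenced in 4 libraries, 1 per group. The authors deposited FPKM per gene. Per the submitters' processing notes the tools were TopHat2 2.0.12 and HTSeq 0.6.1, and a genome build and strand setting are not given in the sources used here. From the steps between low FPKM values, whole reads were recovered for all 16894 genes above 0 within a tolerance of 1e-08, giving library totals of 16654793 to 18020270 for the other libraries and 13948790 for F1 distal. The recovery was also run on simulated data. These were made with the gene lengths recovered here, so that run cannot show whether those lengths are right.

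Tables were joined on gene identifier over 19309 genes, and 2 rows that name no gene were left out. Differences are log2(FPKM + 1), F1 minus F5, over genes that averaged at least 1 FPKM in the 4 libraries. With that pseudocount they understate changes of low genes. Folds of single genes are FPKM ratios with 95% exact binomial (Clopper-Pearson) intervals from reads, which cover counting error only. Against 0 reads the fold is a bound at 3 reads per library. The main values are as deposited. Median-ratio scaling used the 13557 genes above 0 in all 4 libraries. Every other setting is given in the closing section.

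With 1 library per side no test was run. The members and gene lists were chosen with earlier results of these data known. Genes were named by rule: the 15 highest and 15 lowest with a mean of at least 5 FPKM in the distal pair, the 10 with the most reads per library, for each list the 4 highest, 4 lowest and 2 most abundant, the 5 highest and 5 lowest at 0 reads in the other library, those that differed most or least between pairs, and a fixed set of key genes. Some genes this rule selects are not reported here. Of 485 genes so named 53 overlap another gene in the authors' coordinates, among them STAR, CYP11A1, GRK5, KDELR3, HK2 and NR2F1, and without a known strand setting their reads cannot be told apart from those of the overlapping gene. A planned search of promoters for motifs was not run and no sequence is printed. Values were computed with Python 3.11.15, pandas 2.3.3, numpy 2.4.6 and scipy 1.17.1 and drawn with matplotlib 3.10.9.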

Additional observations from a re-analysis of the deposited data

Results flagged for a closer look

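At 6 genes the differences of the distal and the proximal pair were at least 2-fold and of opposite sign, and the difference between the pairs was not tested. None of the 6 has a usable gene symbol, the lengths behind their FPKM were 65 to 127 bases, and no library held more than 17 reads of any of them. ENSGALG00000017829 was higher in F1 by 1.01 on the log2 scale in distal cells, on 1 read against 0, and stood at -2.39 in proximal cells. ENSGALG00000021762 stood at 1.65 in distal and -1.01 in proximal cells. ENSGALG00000027994 stood at 1.08 and -2.19. The other 3 were lower in distal cells. ENSGALG00000025260 stood at -1.42 and 1.22, ENSGALG00000025378 at -1.47 and 2.61, and ENSGALG00000025662 at -1.34 and 1.14. The last of these had the most reads of the 6, with 16 in F5 distal, 4 in F1 distal, 6 in F5 proximal and 17 in F1 proximal cells.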

How the results depend on the processing

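No paired analysis was possible because each group had 1 library and the labels carry no replicate numbers, and no replicate could be left out. The 601 higher and 1990 lower genes became 1071 and 1199 under median-ratio scaling, 333 and 918 with a pseudocount of 5 FPKM and 187 and 536 with a 4-fold rule. With a mean of at least 5 FPKM 1320 were lower. Under a common FPKM total 563 were higher and 2176 lower, and without ZP3 in that total 747 and 1597. The all-gene median of -0.40 became 0.0028 under median-ratio scaling, -0.25 under a common total without ZP3, -0.26 with a pseudocount of 5 FPKM and -0.20 with no filter. The counts of genes past 2-fold in both pairs, 433 higher and 1020 lower, became 668 and 599 under median-ratio scaling. This check of the counts in both pairs was added after the data were seen. The relative median of the theca and stroma markers, -0.88, became 0.17 with no filter and 0.33 at a mean of at least 5 FPKM, and the number of genes in the list changes with the filter. Of 278 named genes past 2-fold, 22 fell within it under median-ratio scaling, FSHR among them, 7 under a common total without ZP3, 1 under the common total and 73 with a pseudocount of 5 FPKM, and 0 with a pseudocount of 0.5 FPKM. Under none of these settings did a named gene past 2-fold change its direction. At the depth of the F1 distal library a gene with 0 reads was not detectable rather than absent.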

Other observations

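A gene symbol was taken as usable if it occurred once in the files and a reference gene list held it on no conflicting chromosome. Of all 11203 genes kept, 8297 had a usable symbol. Genes past 2-fold without one numbered 193 of the 601 higher in F1 distal cells and 544 of the 1990 lower. An abundant one, ENSGALG00000026592, stood at 13569 FPKM in F5 distal and 286 FPKM in F1 distal cells, 47.5-fold lower, and at 15716 and 236 FPKM in F5 and F1 proximal cells. ENSGALG00000004692 stood at 334 FPKM in F5 distal and 1131 FPKM in F1 distal cells. Both were chosen after their values were seen. Among abundant named genes, RFLB stood at 8501 and 1111 FPKM in F5 and F1 distal cells.

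Of the 7 genes whose names begin with RRP, which carry roles in ribosomal RNA processing, 6 were at least 2-fold lower in F1 distal cells, and they lie on 4 chromosomes. They were looked at after their values were seen. RRP15 stood at 15.6 and 0.273 FPKM, RRP12 at 23.3 and 0.662 FPKM, RRP36 at 24.3 and 1.18 FPKM, RRP7A at 29.998 FPKM in F5 and 1.16 FPKM in F1, RRP1B at 12.2 and 0.492 FPKM and RRP9 at 31.3 and 9.08 FPKM, whereas RRP8 was level at 13.7 and 12.7 FPKM. They were near as low in F1 proximal cells, with RRP15 at 0.3703 FPKM and RRP7A at 1.12 FPKM. The other 54 ribosome biogenesis genes had a median of -0.11 relative to all genes. The 7 genes stand next to each other in the alphabetical order of the authors' table. The part of that order in the values was not tested.

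By chromosome, the share of genes at least 2-fold higher in F1 distal cells was 10.6% of 510 on chromosome Z, one of the sex chromosomes of birds, 10.7% of 150 on chromosome 26 and 1.96% of 102 on chromosome 25, against 5.36% of all genes. The share of lower genes on Z was 19.4%, against 17.8%. The shares of higher genes given here are extremes among the chromosomes compared, and the 1.96% on chromosome 25 is 2 genes. Each chromosome compared had at least 22 genes kept, and those with fewer were left out. All of these shares are as deposited. They have no test and their cause was not tested.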
